A study of Mus musculus with 16 samples.

Results

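The matrix proteases and their inhibitors were followed in the hind limb skin of 16 mice, as every gene of the count table whose symbol begins with Mmp, Timp, Adamts or Adamtsl and a number. There were 37 such genes among 14858: 12 matrix metalloproteinase (Mmp) genes, 3 tissue inhibitor of metalloproteinase (Timp) genes, 17 Adamts genes and 5 Adamtsl genes. They were picked by symbol alone, but the set was chosen with earlier results of these data known. Timp1 and Mmp13 are not among the genes of the count table. Skin RNA was captured with exon probes and sequenced, with 1 library per mouse. All mice were young female BALB/cAnNTac mice of about 10 to 16 weeks, with no transgene and no treatment other than the flight. The ground controls (n = 6) stayed on Earth in matched housing, and the mice of the exposure to space environment (ESE) group (n = 10) were flown to the International Space Station (ISS). The study divided the ESE mice by 5-methylcytosine, a mark of DNA methylation, into the responder ESE cohort (low level, n = 4) and the non-responder ESE cohort (high level, n = 6). Mice also fell into 2 mission arms of 8 mice each, the ISS arm, whose ESE mice were killed in orbit, and the live animal return (LAR) arm, whose ESE mice were killed after landing. According to the paper, the ESE mice of the LAR arm also spent longer in space and recovered on the ground before they were killed. Place of killing, time in space and recovery therefore cannot be told apart in the ESE mice. The labels give every mouse the same range of age. Age or date of killing may differ between the arms, also in the controls, and cannot be told apart from the arm. Each arm held 3 non-responders, 2 responders and 3 ground controls, which stayed on Earth. The arm of each mouse came from the study's supplementary sample sheet, and the labels of the libraries do not give it.

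Matrix metalloproteinases are zinc enzymes that cut collagens, laminins and other proteins of the extracellular matrix. They are made as inactive precursors, and the TIMP proteins block them by binding the active site. ADAMTS enzymes are secreted proteases with thrombospondin repeats that trim procollagen, cleave proteoglycans such as versican and aggrecan, or act on microfibrils, while the ADAMTSL proteins carry similar repeats without a protease domain. In skin these genes take part in wound repair, in the growth cycle of the hair follicle and in the turnover of dermal collagen.

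The libraries held 4159342 to 22593931 counts, of which the ribosomal RNA gene Rn45s took 12.9% to 51.9%. All 6 keratinocyte markers were measured, and their summed level was 2966 to 18127.6 CPM (counts scaled to a common library size) in every library, as the label of skin requires. Some libraries stood apart by tissue. Ground control replicate 6 had a summed level of the 8 skeletal muscle markers of 47640 CPM, against at most 4418 in the others. Non-responder replicate 4 had the highest summed level of the 6 adipocyte markers (4198 CPM, against at most 784.6) and of the 6 endothelium markers (527 CPM, against at most 149.3). Responder replicate 1 had 2034 CPM over the 5 measured liver markers, against at most 107.2 in the others. Both ground control replicate 6 and non-responder replicate 4 belong to the LAR arm. In whole skin, fewer cells of a type and less RNA per cell cannot be told apart. Library numbers ran in the order of group and then arm. The labels do not say in what order the libraries were prepared. If preparation followed these numbers, its order and the groups cannot be told apart.

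The promoters of Adamts17 and Timp3 are shown because the results by mission arm turn on these genes. The 250 bases before each RefSeq start on GRCm38.p6 (the same build as mm10) lie at chr7:66839485-66839734 for Adamts17 and at chr10:86300162-86300411 for Timp3, both on the plus strand. Capitals mark a match to one of 3 motifs searched on both strands: the AP-1 motif TGANTCA, where N is any base, the E-box CACGTG and the TATA box TATAAA.
Adamts17: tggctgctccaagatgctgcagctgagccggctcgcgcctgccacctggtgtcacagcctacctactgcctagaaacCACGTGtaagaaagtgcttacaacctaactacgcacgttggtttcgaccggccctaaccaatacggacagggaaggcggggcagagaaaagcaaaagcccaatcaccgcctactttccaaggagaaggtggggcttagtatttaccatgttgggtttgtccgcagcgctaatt
Timp3: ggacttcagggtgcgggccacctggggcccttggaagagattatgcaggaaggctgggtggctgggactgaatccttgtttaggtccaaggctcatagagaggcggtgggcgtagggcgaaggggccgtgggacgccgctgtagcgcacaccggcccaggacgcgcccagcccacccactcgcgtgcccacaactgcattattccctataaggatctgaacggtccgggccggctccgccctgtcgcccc
The window of Adamts17 held 1 E-box, which starts 173 bases before the start and overlaps no other match, and the window of Timp3 held none of the motifs. RefSeq entries matched 24 of the 37 members. The E-box was found in 1 of these 24, against 6.86% of all 27025 genes with a window. The AP-1 motif was found in 1 (Mmp3), against 7.82% of all genes, and the TATA box in 3 (Adamts1, Adamtsl2 and Mmp3), against 14.3%. These matches describe the letters of the windows and no binding was measured.

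Per length, in RPKM (CPM divided by the gene length in kilobases), the levels of the members spanned a wide range. Adamts14, a procollagen N-proteinase, stood first with a median of 20.8 RPKM (7.01 to 42.6 over the 16 libraries). It was followed by Adamts1, which cleaves versican and aggrecan, with a median level of 12.8 RPKM, by Mmp28 (epilysin, known from keratinocytes) with 12.6 RPKM, and by Adamtsl5 with 11.9 RPKM. The ranges of these 4 genes overlapped, so their order is not fixed by the libraries. Next came the membrane protease Mmp14 at a median of 10.7 RPKM and Mmp2 (gelatinase A) at 9.34 RPKM. Mmp14 activates the precursor of MMP2 together with TIMP2, and Timp2 stood beside them at 7.65 RPKM. Timp3, the inhibitor that binds to the matrix, had a median of 5.17 RPKM, and Timp4 one of 0.881 RPKM. The classical inducible proteases were low, with medians of 0.909 RPKM for Mmp3 (stromelysin 1) and 0.392 RPKM for Mmp9 (gelatinase B). Mmp16 was lowest at 0.0417 RPKM.

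**Figure D1:**
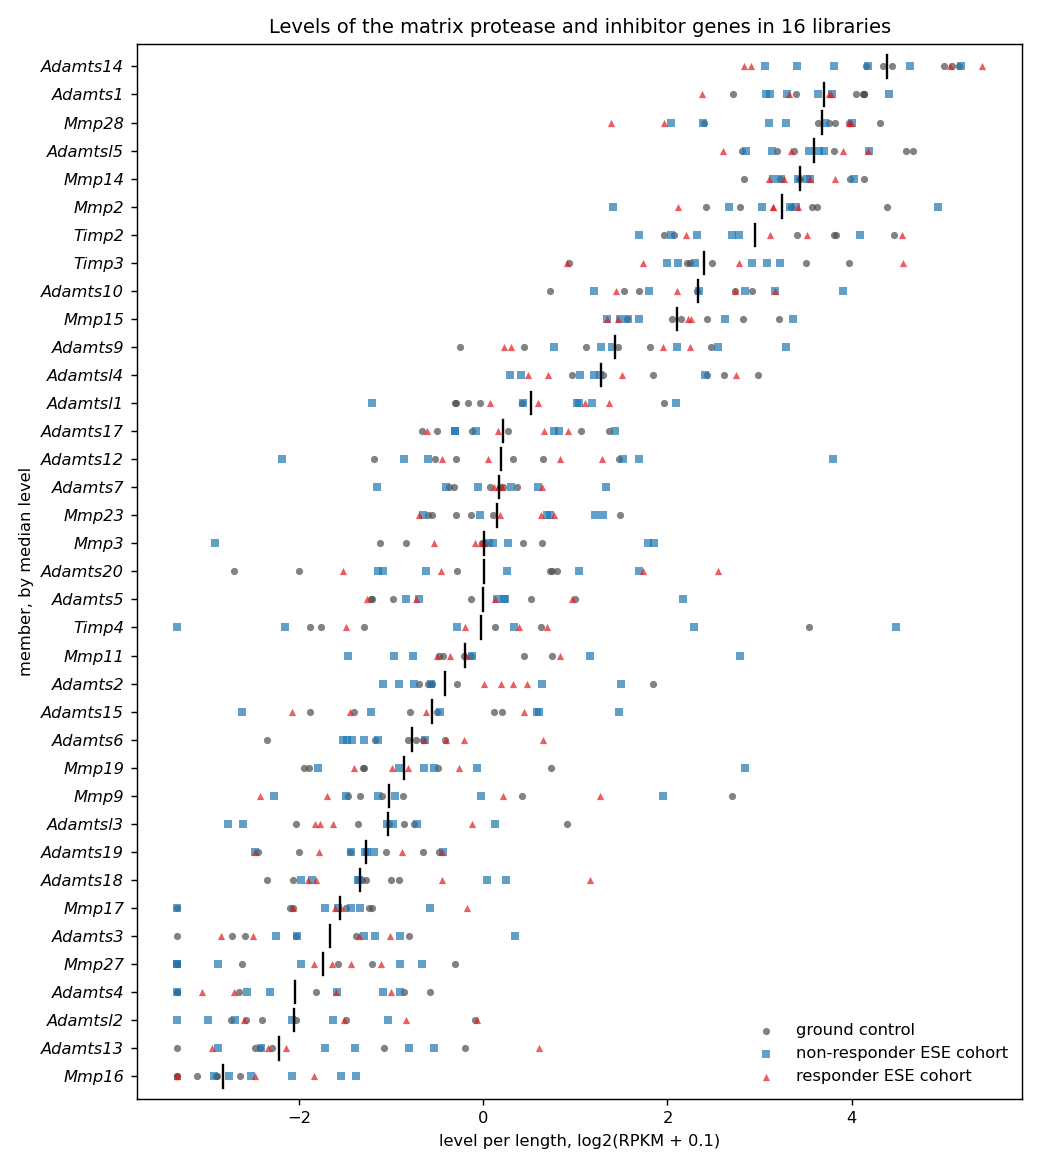
Level per length of the 37 members in the 16 libraries, as log2(RPKM + 0.1) on the horizontal axis, with members ordered by median (black line) and points coloured and shaped by group. Points of the 3 groups lie over each other for most members, and single libraries stand far to the right for Timp4, Mmp19 and Adamts12.

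The members differed in how evenly the mice shared them. Mmp14 was the most even, at 18.3 to 45.3 CPM (a coefficient of variation of 26.2% over 16 libraries). Adamts1 was at 24.9 to 103 CPM (36.2%) and Adamts7 followed with 43.4%. At the other end, Timp4, an inhibitor best known from heart, muscle and fat, had a coefficient of 198% and Mmp19 one of 183%. Non-responder replicate 4 alone held 46.8% of the summed CPM of Timp4, 48.2% of that of Mmp19 and 41.3% of that of Adamts12. It was the highest library for 12 of the 37 members, and for 13.2% of all genes tested for the effect of flight. Ground control replicate 6 was highest for 5 members, against 16.6% of all genes. The summed levels of the adipocyte and endothelium markers in non-responder replicate 4, given above, moved with these values, and their part was not tested.

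The first comparison asked whether the flight changed the members. By edgeR's quasi-likelihood test, with p adjusted over all genes after Benjamini and Hochberg, none of the 34 members tested passed an adjusted p of 0.05, and 0 of 13577 genes did (0%). No member passed by DESeq2, by the likelihood ratio test or by limma-voom either. At an unadjusted p under 0.05 there were 0 of 34 members, against 7.86% of all genes. There were 3 members without ground control replicate 6 and 5 by limma-voom. The share of all genes in these settings is not given, and the 7.86% is not their background. The smallest adjusted p among the members was 0.624. Of the 34 members, 20 had a log2 fold change above 0, and the median was 0.30 (all genes tested: -0.04). This median was 0.019 without non-responder replicate 4 and -0.22 over the members with at least 10 counts in every library, so its sign was not stable. By family the medians were 0.51 for 17 Adamts genes, 0.12 for 10 Mmp genes, 0.03 for 3 Timp genes and -0.49 for 4 Adamtsl genes. The levels of the ESE group and the ground controls overlapped for every member tested, as they did for all genes but Mfsd4, 1700007J10Rik and B230206H07Rik (0.0221% of all genes).

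Adamtsl4, a fibrillin-binding protein, had the smallest p of the members in this comparison. Its level was 7.47, 9.52, 14.1, 21.4, 24.4 and 31.6 CPM in the ground controls and 4.52 to 26.7 CPM (median 8.43) in the ESE group. The highest ESE values lay inside the range of the controls, and the fitted difference on the log2 scale was -0.78 (SE 0.41, adjusted p = 0.624 by edgeR). Adamts18, a protease of little known substrate, had 0.469 to 2.10 CPM in the ground controls and 0.745 to 10.4 CPM in the ESE group. Its log2 fold change was 1.13 (SE 0.61, adjusted p = 0.624 by edgeR), and without responder replicate 4, the library at 10.4 CPM, it was 0.70.

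The pair of proteases and inhibitor that act together at the cell surface had levels that overlapped broadly between the groups. Mmp14 was at 30.7 ± 10.3 CPM in the ground controls (SD, n = 6) and at 28.9 ± 6.30 CPM in the ESE group (SD, n = 10), with a log2 fold change of -0.09 (SE 0.20). For Mmp2 the levels were 33.8 ± 16.5 and 30.4 ± 23.4 CPM, with a log2 fold change of -0.16 (SE 0.42), and for Timp2 they were 41.2 ± 24.9 and 32.5 ± 23.6 CPM, with a log2 fold change of -0.34 (SE 0.46). That of Timp2 ran from -0.63 without responder replicate 3 to -0.051 without ground control replicate 3, and was -0.0082 without the 3 libraries with most Rn45s. Timp3 had a log2 fold change of 0.03 (SE 0.50). The directions of Mmp14, Mmp2 and Timp3 turned when single libraries were left out, and that of Timp3 also with the arm in the fit.

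Of the inducible proteases, the log2 fold change of Mmp3 came to 0.49 (SE 0.60) and that of Mmp9 to -0.79 (SE 0.86). Mmp9 was at 0.830 to 3.94 CPM in 5 ground controls and at 20.2 CPM in ground control replicate 2, and at 0.274 to 11.9 CPM in the ESE group. Without ground control replicate 2 the log2 fold change was 0.74, so its direction rested on that mouse. Among the enzymes that act on procollagen and proteoglycans, the log2 fold change of Adamts1 came to -0.30 (SE 0.27), that of Adamts2, a procollagen N-proteinase, to -0.05 (SE 0.50), and that of Adamts5, an aggrecanase, to 0.53 (SE 0.57). Without ground control replicate 6, in which Adamts2 reached 31.7 CPM against 4.71 to 6.56 in the other controls, its log2 fold change was 0.83. The value of Adamts5 was 0.068 without non-responder replicate 4 and 0.98 without ground control replicate 6, and that of Mmp3 was 0.19 without non-responder replicate 4 and 0.016 by limma-voom.

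**Figure D2:**
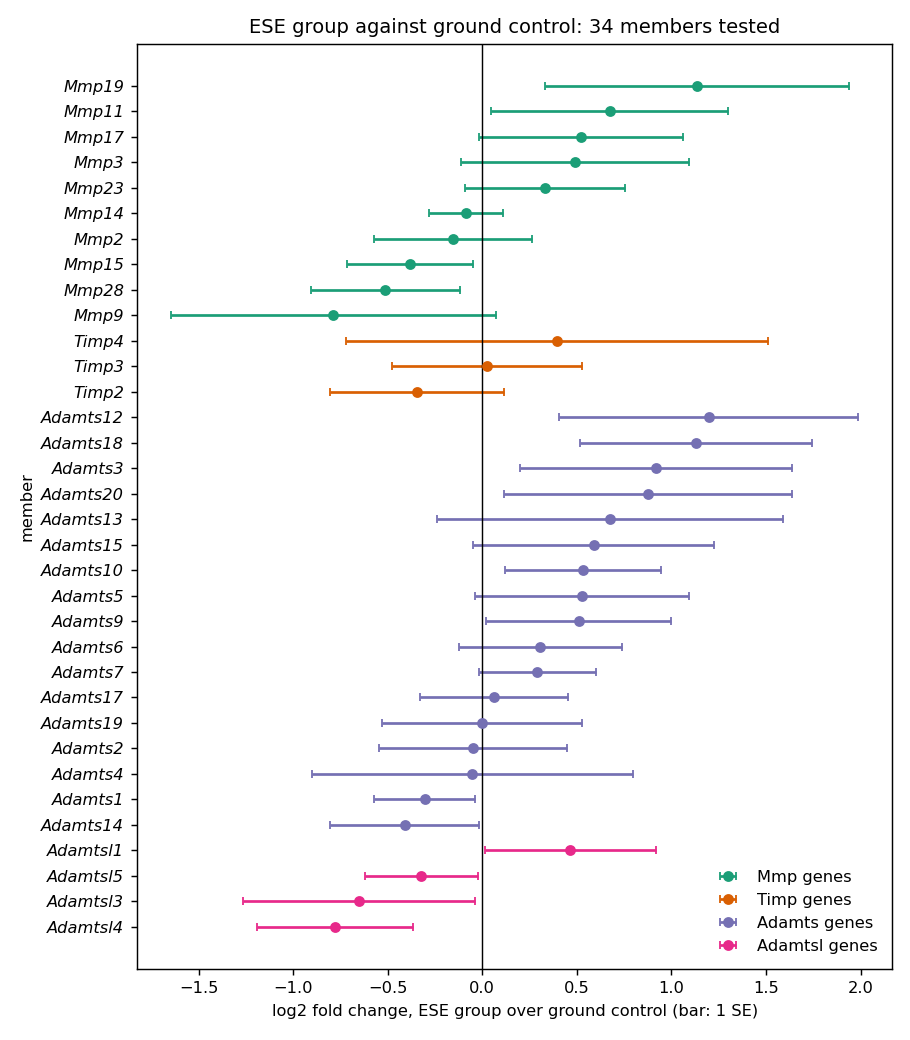
Log2 fold change of the ESE group (n = 10) over the ground controls (n = 6) for the 34 members tested, with bars of 1 SE and colours by family. The values run from -0.79 for Mmp9 to 1.20 for Adamts12, and no member passed the adjusted threshold.

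Next, each ESE cohort was set against the ground controls, and one cohort against the other. None of the 35 members tested passed the adjusted threshold in the 3 comparisons by edgeR's quasi-likelihood test, nor by DESeq2, the likelihood ratio test or limma-voom. Among all 14107 genes, 1 passed, Tnk2os, for responders over ground controls (0.00709%) and 0 (0%) in the others. At an unadjusted p under 0.05 there was 1 member for responders over ground controls (all genes: 3.42%), 0 for non-responders over ground controls (6.96%) and 1 for responders over non-responders (2.17%). In both cases it was Adamts6. Tnk2os is a non-coding gene named as lying opposite Tnk2, and the strand setting of the counting is not given in the sources used here, so some of its reads may belong to Tnk2. The comparisons with the ground controls share the same 6 control libraries.

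Adamts6, a relative of the microfibril protease ADAMTS10, was measured at 2.60, 3.17, 3.69 and 7.06 CPM in the responders. In the non-responders it was at 1.19, 1.25, 1.31, 1.49, 1.71 and 2.64 CPM, and in the ground controls at 0.469, 1.66, 2.25, 2.43, 2.58 and 3.14 CPM. The responders were above 5 of the 6 non-responders, and the lowest responder lay just under non-responder replicate 3. The log2 fold change of responders over non-responders was 1.36 (SE 0.42, unadjusted p = 0.0054, adjusted p = 0.9999 by edgeR) and that over ground controls was 0.96 (SE 0.42, adjusted p = 0.976). Without responder replicate 4 these were 0.94 and 0.58. Counts were low, at 2 to 61 reads per library outside responder replicate 4, which had 232.

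Mmp19, a protease known from blood vessels and keratinocytes, and Adamtsl4 had the smallest p for non-responders over ground controls. Mmp19 was at 0.649, 1.49, 1.87, 2.05, 2.95 and 24.5 CPM in the non-responders and at 0.554 to 5.39 CPM in the ground controls. This gave a log2 fold change of 1.61, and of 0.03 without non-responder replicate 4, the library at 24.5 CPM. The exons of Mmp19 share 789 bases with Tmem198b on the other strand (1521 counts in all libraries), so some of its reads may belong to that gene. For Adamtsl4 the log2 fold change of non-responders over ground controls was -0.94 (adjusted p = 0.660 by edgeR).

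**Figure D3:**
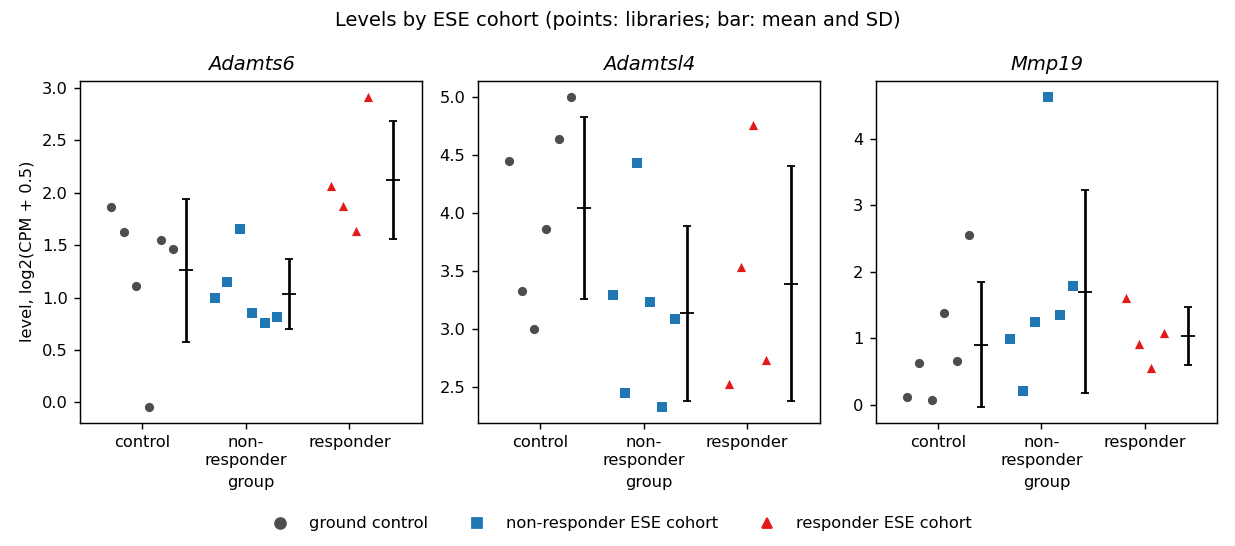
Levels of Adamts6, Adamtsl4 and Mmp19 by cohort as log2(CPM + 0.5), with 1 point per library and the mean and SD of each group beside it. The responders lie high for Adamts6, and non-responder replicate 4 stands alone for Mmp19.

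Between the mission arms, the levels of Adamts17 did not overlap. Adamts17 is a secreted protease of the microfibril-related branch of the family, whose loss in humans gives short stature and eye defects, and its gene lies on chromosome 7 from 66839735 to 67152625 (mm10, plus strand). In the ISS arm its level was 6.64, 11.9 and 14.9 CPM in the ground controls and 8.95, 9.68, 10.0, 10.8 and 15.7 CPM in the ESE mice. In the LAR arm it was 3.20, 3.66 and 4.92 CPM in the ground controls and 3.34, 4.26, 4.29, 5.09 and 6.15 CPM in the ESE mice. Every ISS library was above every LAR library, with or without flight. Of the 34 members it was the only one whose arms did not overlap, and 4 of 13577 genes (0.0295%) had this property, Abcc8 and Per2 among them. The reads behind these levels were 26 to 285 per library in the ISS arm and 21 to 202 in the LAR arm.

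The arm difference of Adamts17 was seen in 2 comparisons that share no library. Both came from 1 fit of all 16 libraries with a shared estimate of the spread between mice. Their SE and p-values are therefore not independent. The log2 fold change of LAR over ISS was -1.51 in the ground controls (SE 0.36, n = 3 and 3, adjusted p = 0.489 by edgeR) and -1.25 in the ESE mice (SE 0.27, n = 5 and 5, adjusted p = 0.490 by edgeR). DESeq2 called it in both, with an adjusted p of 0.022 in the ground controls and 0.0034 in the ESE mice, and the likelihood ratio test called it in the ESE mice (adjusted p = 0.030). Over all mice with exposure as a covariate, a comparison added after these levels were seen, it was -1.35 (SE 0.21, unadjusted p = 7.6e-06). This was the smallest p of the 13141 genes tested, and its adjusted p was 0.10 by edgeR's quasi-likelihood test, where 0 genes passed (0%). By DESeq2, which called 75 genes (0.571%), the adjusted p was 2.5e-06, and by limma-voom it was 0.024. Leaving out single libraries gave log2 fold changes of -1.45 to -1.25, and leaving out ground control replicate 6 and non-responder replicate 4 together gave -1.32 (adjusted p = 0.818 by edgeR). The exposure itself gave Adamts17 a log2 fold change of 0.06 (SE 0.39).

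Per2, a core gene of the circadian clock, had the opposite order, with every LAR library above every ISS library, and its values are given beside it although it is no member and was chosen after its values were seen. Per2 was at 8.86, 11.4 and 12.7 CPM in the ground controls of the ISS arm and at 38.4, 68.2 and 126 CPM in those of the LAR arm. In the ESE mice it was at 2.98, 10.3, 11.8, 25.2 and 28.2 CPM in the ISS arm and at 36.9, 39.8, 49.9, 63.8 and 74.1 CPM in the LAR arm. Of 12 clock genes looked at for this reason, without a test, Per3 was at 21.2 to 87.5 CPM in the ISS arm and at 46.2 to 174 CPM in the LAR arm. Dbp had a median of 19.6 CPM in the ISS arm and 53.0 CPM in the LAR arm. Arntl, which codes for the partner of CLOCK that switches on the Per genes, had a median of 32.0 CPM in the ISS arm and 23.5 CPM in the LAR arm. In the same order of arms, the medians were 7.53 and 13.6 CPM for Cry1, 47.9 and 79.3 CPM for Cry2, and 14.4 and 23.5 CPM for Nr1d2. Those of Clock were 48.4 and 57.2 CPM, those of Npas2 7.56 and 5.63 CPM, and those of Ciart 2.63 and 2.94 CPM. Within the groups, Clock, Per1 and Nr1d1 had another order. Clock had a median of 58.9 CPM in the ISS arm and 56.9 CPM in the LAR arm in the ground controls, but of 46.5 and 57.5 CPM in the ESE mice. Per1 had a median of 106 CPM in the ISS arm and 147 CPM in the LAR arm in the ground controls, but of 130 and 88.4 CPM in the ESE mice. The median of Nr1d1 was lower in the LAR arm both in the ground controls (130 CPM in the ISS arm and 80.8 CPM in the LAR arm) and in the ESE mice (45.9 and 41.7 CPM). Over all mice, however, the median of Nr1d1 was 48.7 CPM in the ISS arm and 75.9 CPM in the LAR arm. That of Per1 over all mice was 112 and 107 CPM. The arms overlapped for all of the 12 except Per2. The part of the clock in the level of Adamts17 was not tested.

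Counts of members by arm were as follows. In the ground controls 3 of 35 members had an unadjusted p under 0.05 (all genes: 9.07%), and in the ESE mice 7 of 35 had one (all genes: 5.44%). Over all mice there were 7 of 33 (all genes: 9.11%), of which 5 were higher in the LAR arm (all genes: 6.23%) and 2 lower (all genes: 2.88%). Without non-responder replicate 4 the counts fell to 4 in the ESE mice and 4 over all mice, where all genes were at 4.68%, and with a minimum of 10 counts in every library to 3 in each, while limma-voom gave 11 in the ESE mice. In the ground controls the count was 6 without ground control replicate 4 or without non-responder replicate 4, 5 without ground control replicate 3, and 2 to 6 over all alternatives. Apart from the 4.68%, the shares of all genes under these alternatives are not given. A shift of the members there cannot be told apart from a shift of all genes. No member passed the adjusted threshold by edgeR's quasi-likelihood test, where 0 of 14381 genes passed within the ground controls or within the ESE mice (0%). The median log2 fold change of the members over all mice was 0.38, against 0.03 for all genes. It was 0.10 without non-responder replicate 4, 0.14 without ground control replicate 6, -0.065 without both and -0.013 by limma-voom. With all 16 libraries, 9 of 10 Mmp genes were above 0 (median 0.66), 4 of 4 Adamtsl genes (0.38), 10 of 16 Adamts genes (0.11) and 2 of 3 Timp genes (0.38). Among all genes 7229 of 13141 were above 0. Within the ESE mice only 2 of 5 Adamtsl genes were above 0 (median -0.09).

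Timp4 had the largest fold change between the arms among the members over all mice. Its gene lies on chromosome 6 from 115245616 to 115251849 (minus strand). Its level was 0.242, 0.277 and 0.438 CPM in the ground controls of the ISS arm and 1.41, 2.04 and 16.3 CPM in those of the LAR arm. In the ESE mice it was 0, 0.177, 0.363, 1.09 and 1.65 CPM in the ISS arm and 1.02, 1.71, 2.15, 6.79 and 31.4 CPM in the LAR arm. The arms overlapped in the ESE mice and were apart in the ground controls, where 7 of 35 members (all genes: 10.7%) did not overlap. Over all mice the log2 fold change of LAR over ISS was 3.81 (SE 0.84, adjusted p = 0.374 by edgeR), and 2.10 without ground control replicate 6 and non-responder replicate 4, the libraries at 16.3 and 31.4 CPM. Timp4 was called over all mice by DESeq2 (adjusted p = 0.00046) and by the likelihood ratio test (0.0046), and in the ESE mice by DESeq2 alone (0.031), where its log2 fold change without non-responder replicate 4 was 1.99 by edgeR. The summed adipocyte markers were at 144 to 773 CPM in the ISS arm and 373 to 4198 CPM in the LAR arm, and the endothelium markers at 7.82 to 32.3 and 9.63 to 527 CPM, with no marker of either list at 0 in every library. The summed skeletal muscle markers were at 14.5 to 3983 CPM in the ISS arm and at 5.53 to 47640 CPM in the LAR arm, highest in ground control replicate 6. The part of fat, vessels and muscle in the level of Timp4 was not tested.

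Mmp2, Mmp19 and Mmp15 followed with smaller differences between the arms. Mmp2 was at 7.78 to 35.8 CPM (median 19.9) in the ISS arm and at 24.5 to 92.8 CPM (median 31.9) in the LAR arm. The log2 fold change over all mice was 1.02 for Mmp2 (SE 0.34, adjusted p = 0.497 by edgeR), 1.99 for Mmp19 (SE 0.64) and 0.75 for Mmp15 (SE 0.28), a membrane protease like Mmp14. Without ground control replicate 6 and non-responder replicate 4 they were 0.54, 0.47 and 0.38. Mmp11 (stromelysin 3) had a log2 fold change of 1.87 in the ESE mice (SE 0.65) and of 0.91 without non-responder replicate 4, where its level was 15.6 CPM. Adamts13, the protease of von Willebrand factor that is made mainly in the liver, had a log2 fold change of LAR over ISS of -2.06 over all mice (SE 0.75, adjusted p = 0.5001 by edgeR). It was highest in responder replicate 1 of the ISS arm (7.13 CPM), the library with 2034 CPM of liver markers, and without that mouse the value was -1.54. The part of liver RNA in the level of Adamts13 was not tested.

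**Figure D4:**
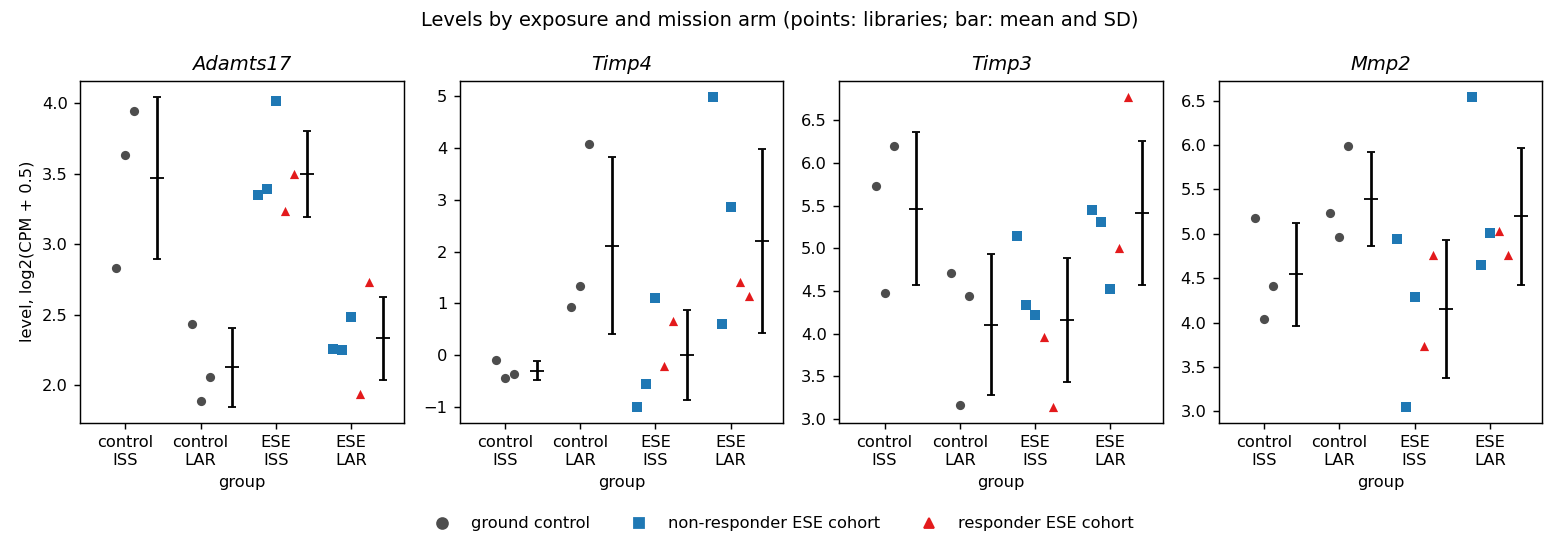
Levels of Adamts17, Timp4, Timp3 and Mmp2 by exposure and mission arm as log2(CPM + 0.5), with 1 point per library and the mean and SD of each group beside it. Adamts17 is lower in every LAR library than in every ISS library, and for Timp3 the ESE mice lie mostly below the controls in the ISS arm and mostly above them in the LAR arm, with 1 ESE mouse inside the range of the controls in each.

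Timp3 had the smallest p of the members for a flight difference that depended on the arm. Its gene lies on chromosome 10 from 86300412 to 86349505 (plus strand). In the ISS arm its level was 21.7, 52.5 and 73.1 CPM in the ground controls and 8.32, 15.1, 18.2, 19.8 and 35.0 CPM in the ESE mice. In the LAR arm it was 8.45, 21.3 and 25.8 CPM in the ground controls and 22.6, 31.5, 39.1, 43.2 and 109 CPM in the ESE mice. Only 1 ESE mouse of the ISS arm exceeded the lowest control there, and only 1 ESE mouse of the LAR arm lay below the highest control. The log2 fold change of ESE over ground control was -1.36 in the ISS arm (SE 0.54) and 1.42 in the LAR arm (SE 0.58), where it was 0.94 without responder replicate 4. The difference of these was 2.79 (SE 0.80, unadjusted p = 0.0032, adjusted p = 0.999 by edgeR), and it did not pass the test over all genes. Leaving out single libraries gave 2.28 to 3.15.

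In these comparisons by arm, 2 of 35 members had an unadjusted p under 0.05 for the ESE effect in the ISS arm (all genes: 2.39%), 2 in the LAR arm (9.37%) and 3 for the difference between the arms (4.8%). No gene of 14381 passed the adjusted threshold by edgeR's quasi-likelihood test in any of them (0%). DESeq2, the likelihood ratio test and limma-voom called no member in the LAR arm or for the difference. In the ISS arm limma-voom called 6 of 35 members, among 1845 of 14381 genes (12.8%), and the other tools called none. Beside Timp3 the members were Mmp23 in the ISS arm (log2 fold change 1.35, SE 0.59), Adamts18 in the LAR arm (1.94, SE 0.91), and Mmp23 (-1.75, SE 0.79) and Adamtsl2 (-3.27, SE 1.49) for the difference. Mmp23 was at 0.807, 0.830 and 1.02 CPM in the ISS ground controls and at 1.49 to 3.19 CPM in the ISS ESE mice, and it was the 1 member of 35 whose levels did not overlap there (all genes: 1.79%). Mmp23 in the LAR arm was at 1.17, 1.41 and 3.87 CPM in the ground controls and at 0.742 to 3.39 CPM in the ESE mice. Adamtsl2, which binds fibrillin and the latent form of TGF-beta, was at 2 to 52 reads per library in the ground controls, and without ground control replicate 6 its difference was -1.52, and that of Mmp23 was -0.96. Without responder replicate 4 the value of Adamts18 in the LAR arm was 1.09.

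The 5 Adamtsl genes, which code for the members without a protease domain, shared a sign in the LAR arm. This pattern was picked after the values were seen. The log2 fold change of the 5 for ESE over ground control there was -0.08 to -1.41 (median -1.11). Among all genes 7670 of 14381 were also below 0. In the ISS arm it was above 0 for 4 of the 5 (all genes: 7481 of 14381). In the ground controls all 5 were above 0 for LAR over ISS (all genes: 8091 of 14381), with values from 0.86 for Adamtsl4 to 1.87 for Adamtsl2. Both of these comparisons use the same LAR ground controls. Their summed level was 46.2, 66.5 and 66.5 CPM in the ISS ground controls and 54.4, 120 and 167 CPM in the LAR ground controls, with the highest in the muscle-rich ground control replicate 6. The ESE mice lay between 45.8 and 93.4 CPM in both arms. None of the 5 passed the adjusted threshold in either comparison. Ground control replicate 6 was the highest library for Adamtsl3, Adamtsl4 and Adamtsl5.

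**Figure D5:**
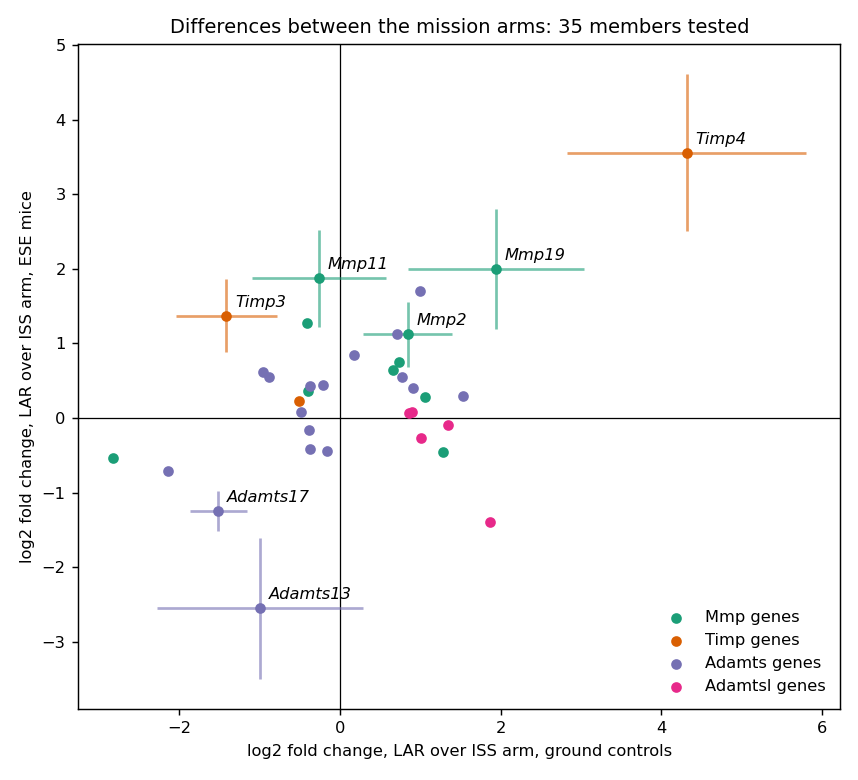
Log2 fold change of the LAR arm over the ISS arm for 35 members, in the ground controls (horizontal) and in the ESE mice (vertical), with bars of 1 SE for the members named in the plot. The comparisons share no library but come from the same fit. Adamts17 and Timp4 lie on the same side of 0 in both, and Timp3 lies on opposite sides.

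Genes that act with the members were read from fixed lists. For the ESE group over ground control, none passed the adjusted threshold by edgeR's quasi-likelihood test. At an unadjusted p under 0.05, which 7.86% of all genes met, there were 0 of 9 genes of plasminogen activation, 0 of 13 activators and membrane regulators of matrix metalloproteinases, 1 of 10 ADAM proteases, 0 of 6 astacin proteases and procollagen enhancers, 0 of 12 cathepsins and cystatins, 1 of 23 matrix substrates and 0 of 14 regulators of protease gene expression. The ADAM gene was Adam9 (log2 fold change -0.43, SE 0.18, adjusted p = 0.624 by edgeR), a membrane protease found in keratinocytes among other cells, with a value of -0.28 without ground control replicate 6. The substrate was Comp, the cartilage oligomeric matrix protein, with a log2 fold change of -1.51 (SE 0.46, adjusted p = 0.624 by edgeR). Comp was low, at 0.221 to 3.52 CPM with a median of 0.731 CPM. Its value was -1.11 without ground control replicate 4, and it was not tested without responder replicate 2 or without responder replicate 3.

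Between the arms over all mice none of these genes passed the adjusted threshold by edgeR, and 9.11% of all genes had an unadjusted p under 0.05 (6.23% higher and 2.88% lower in the LAR arm). Of 22 matrix substrates, 5 were on the higher side and 1 on the lower side. Without non-responder replicate 4 these were 1 and 0 of 22. The smallest p belonged to Vwf, the von Willebrand factor of vessels (log2 fold change 1.64, SE 0.51), followed by Col3a1, a collagen of the dermis (1.18, SE 0.44). Vwf is also one of the endothelium markers, and it was at 84.0 CPM in non-responder replicate 4, where those markers summed to 527 CPM, and at most at 26.3 CPM in any other library. When it was left out the values were 0.84 for Vwf and 0.50 for Col3a1, and without ground control replicate 6 as well they were 0.55 and 0.35. The part of vessels in these values was not tested. Of 14 regulators of protease gene expression, 4 were on the lower side and 0 on the higher, and 3 and 0 without non-responder replicate 4. The smallest p here belonged to Fos, a subunit of the AP-1 factor (log2 fold change -2.15, SE 0.60), and to the cytokine gene Tnf (-1.52, SE 0.48). The remaining lists are given with all 16 libraries only. They had 0 of 9 for plasminogen activation and 3 of 13 for activators and membrane regulators (2 higher and 1 lower in the LAR arm). There were 1 of 10 for ADAM proteases, 3 of 6 for astacin proteases and procollagen enhancers and 1 of 12 for cathepsins and cystatins, all higher.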

How the data were processed

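Reads were aligned by the authors to mm10 (STAR), and those with poor or multiple placement were excluded. The authors deposited raw counts per gene from featureCounts. They tested with the likelihood ratio test of edgeR, and their fold changes, p-values and log2 FPKM columns were not used. The strand setting of the counting is not given in the sources used here. Genes were kept by filterByExpr and scaled by TMM, and groups were compared in edgeR 4.0.16 (R 4.3.3) by glmQLFit and glmQLFTest (quasi-likelihood, robust), with Benjamini-Hochberg adjustment over all genes at a threshold of 0.05, in fits with 2 groups, 3 groups, 4 cells of exposure and arm, and arm with exposure as a covariate. CPM used TMM library sizes, and RPKM divided CPM by the gene length of the deposited table. The steps were tested on simulated data. Replicates are separate mice, and all 36 pairs of libraries within a group differed by more than sampling noise (smallest chi-square per degree of freedom 40.3).

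Members and lists were chosen with earlier results of these data known. Fold changes were named for members with an unadjusted p under 0.05 (at most 6 of smallest p per comparison, otherwise 2), for 10 members set by hand for the ESE group over ground control, and for the 1 or 2 genes of smallest p in other lists. The values of Adamts12, of the Adamtsl genes by arm and of Adamts17 under exposure, and the clock genes, were chosen after their values were seen. Mmp27 and Mmp16 passed no filter, and Adamtsl2 passed it only in the fits with 3 groups and 4 cells. Alternatives were the likelihood ratio test, DESeq2 1.42.0, limma-voom (limma 3.58.1) with quality weights, RLE size factors, no filter, a minimum of 10 counts per library, fits that were not robust, Rn45s left out, the 3 libraries with most Rn45s left out, the arm as a covariate, the groups compared alone, and each library left out in turn. Leaving out ground control replicate 6 and non-responder replicate 4, the comparison of the arms over all mice, and libraries left out for genes of other lists, were chosen after seeing the data.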

Additional observations from a re-analysis of the deposited data

Results flagged for a closer look

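Of 60 combinations of a named member and a group, 17 held a library whose gap to the nearest of the others was large against the range of its group by Dixon's criterion. The limits of this criterion hold for values with a normal spread, which CPM need not have. The combinations also share libraries, so their count is not set against a rate by chance. Most of them fell on the 2 libraries that stand apart by tissue. Non-responder replicate 4 was far above the other non-responders for Timp4 (31.4 CPM, others up to 6.79), Mmp19 (24.5, others up to 2.95), Mmp2 (92.8, others up to 31.6), Adamts5 (35.5, others up to 8.71) and Mmp11 (15.6, others up to 4.87). Ground control replicate 6 was far above the other controls for Timp4 (16.3 CPM, others up to 2.04), Adamts2 (31.7, others up to 6.56), Mmp19 (5.39, others up to 2.11), Mmp23 (3.87, others up to 1.41) and Adamtsl2 (2.72, others up to 0.830).

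The remaining values were spread over other mice. Mmp9 was at 20.2 CPM in ground control replicate 2 (others up to 3.94) and at 11.9 CPM in non-responder replicate 1 (others up to 2.80). The same non-responder replicate 1, the shallowest library, had 61.1 CPM of Timp2 (others up to 24.5). Non-responder replicate 3 stood above its group for Adamtsl4 (21.1 CPM, others up to 9.31) and Adamts6 (2.64, others up to 1.71). In the responders, Mmp11 was at 3.84 CPM in replicate 4 (others up to 1.78) and Adamts13 at 7.13 CPM in replicate 1 (others up to 0.639).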

How the results depend on the processing

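Under 28 alternatives, members passed the adjusted threshold in 9 of 271 counts. In the ISS arm limma-voom called 6 members among 1845 genes for the ESE effect, and quasi-likelihood, DESeq2 and the likelihood ratio test called none. DESeq2 called 1 member among 100 genes between the arms in the ground controls, 2 among 94 in the ESE mice and 2 among 75 over all mice. The likelihood ratio test called 0 among 15, 1 among 55 and 2 among 48 genes in the same comparisons. Over all mice limma-voom called 1 member among 9 genes, a minimum of 10 counts in every library gave 1 member and 1 gene, and leaving out 1 library gave 0 to 1 member and 0 to 1 gene. Each of these sets over all mice held Adamts17, whose adjusted p ran from 2.5e-06 to 0.818.

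Counts of all genes called moved elsewhere too. For the ESE group over ground control DESeq2 called 3 genes and the likelihood ratio test 13. For responders over ground controls they called 20 and 21, and limma-voom, no filter, a minimum of 10 counts in every library, the 3 libraries with most Rn45s left out, the arm as a covariate, the groups compared alone, and ground control replicate 6 and non-responder replicate 4 left out each gave 0, with 0 to 1 when 1 library was left out. DESeq2 called 3 genes for non-responders over ground controls, 5 for responders over non-responders and 113 for the ESE effect in the LAR arm, where the likelihood ratio test called 70. The cause was not tested.

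Of 974 values of named members, 21 changed sign, all for 5 members in the ESE group over ground control and none of them called. Adamts2 had log2 fold changes of 0.34 by limma-voom, 0.0017 without Rn45s, 0.10 with the arm as a covariate and 0.57 without ground control replicate 6 and non-responder replicate 4, and -0.30 to 0.83 with single libraries left out. Timp3 had -0.14 with the arm and -0.10 without that pair of libraries, and -0.35 to 0.40 with single libraries left out, which gave -0.20 to 0.086 for Mmp14, -0.51 to 0.12 for Mmp2 and -1.28 to 0.74 for Mmp9. No paired analysis was possible because the labels number no replicates, and a number shared by mice of different groups in the sample sheet does not mark a pair. Low members such as Adamts13 and Timp4 had libraries with 0 reads, which limits their fold changes.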
